A study of Homo sapiens with 8 samples.

Results

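The HOX genes and the long noncoding RNAs of the 4 HOX clusters were described in SH-SY5Y cells, a human neuroblastoma cell line, with and without silencing of the splicing factor PRPF40B. Members were chosen by gene symbol. They are the HOXA, HOXB, HOXC and HOXD genes with a number, the antisense transcripts named after a cluster (HOXA-AS to HOXD-AS), HOTAIR, HOTTIP and HOTAIRM1. The rule found 50 symbols in 47 entries of the 47591 in the table, because HOXC4, HOXC5 and HOXC6 share 1 entry and HOXA3 and HOXA5 another. Of these entries 36 hold protein-coding genes and 11 hold noncoding genes. The set was proposed with results of these libraries known, among them the high HOTAIR level of the edited line. The differences of the members between that line and the controls are therefore descriptions, given with the standard error (SE) of the fit over all genes and without a p-value.

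The series holds 8 libraries of polyadenylated RNA from 3 lines. The G2 line (n = 3) was edited by CRISPR/Cas9, the guide being directed at PRPF40B, selected with puromycin and grown from colonies obtained by limiting dilution. The SCR line (n = 3) received the same machinery with a scrambled control guide, and the WT line (n = 2) was the unedited SH-SY5Y stock from ATCC. Both G2 and SCR were kept in medium with puromycin, which is not stated for WT, so that in the comparisons with WT the drug and the line cannot be told apart. No allele is given for any line, and PRPF40B is the intended target in G2 alone. Each edited or control line is a single line, so the effect of the guide and the history of that line cannot be told apart. The labels call the replicates biological but do not say whether they were separate cultures, so that p-values measure the spread between these libraries.

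HOX genes encode homeodomain transcription factors that give cells their position along the body axis. Within a cluster, the order of the genes along the chromosome follows the order of their expression domains. The low-numbered paralog groups lie at the anterior end and the high-numbered groups, the posterior genes, at the other end, where Polycomb repression is released last. Paralog groups are the genes of the same rank in the different clusters. The sympathetic lineage from which neuroblastoma arises comes from trunk neural crest and carries trunk HOX codes. HOTAIR is transcribed from within the posterior part of HOXC, antisense to its coding genes, and is known for binding to the Polycomb complex PRC2 and to the KDM1A demethylase complex.

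The values are normalized counts, the reads of a gene divided by a size factor of the library. Division by the step between values gave whole numbers, here called recovered counts, 59804395 to 81080747 per library. Small counts came mostly in multiples of 3, so a recovered count may not be 1 read and these totals may overstate the depth. A line counts here as at the floor for a gene when none of its libraries exceeded 9 recovered counts. Averaged over the libraries of a line, 9 recovered counts equal 9.33 normalized counts in G2, 8.14 in SCR and 10.1 in WT. Folds against a line at the floor are lower bounds. The 18947 genes whose mean over the libraries reached 10 were tested with limma. A gene is called when its fold reaches 1.5 with an unadjusted p no higher than 0.05, the thresholds of the study, and every adjusted p is limma's p after Benjamini-Hochberg adjustment over these genes. PRPF40B (chr12:49623561-49644666) measured 840.2, 840.9 and 918 in G2, 1686, 1672 and 1669 in SCR, and 1972 and 1668 in WT. The G2 libraries lay below all 5 controls (exact two-sided permutation test, p = 0.018, the smallest value that 56 groupings allow).

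The HOXA and HOXB clusters were silent in all 3 lines. Of their 26 entries, 21 were at 0 in every library. The 5 others, HOTAIRM1, HOXA7, HOXA10, HOXA13 and HOXB2, had at most 4 recovered counts in any library, which is under the floor. HOTTIP, the noncoding RNA at the posterior end of HOXA (chr7:27092993-27254256 for the whole cluster), was among those at 0. A level at or below the floor was not detectable at this depth. The tested members all lay in HOXC (chr12:53938792-54056030, hg38) and HOXD (chr2:176092721-176190907). Of their 21 entries 17 passed the filter on the mean, 13 coding and 4 noncoding. Just inside it were HOXC-AS1 with a mean of 13.8 and HOXC-AS3 with 14.2, and just outside HOXC13 with 3.18 and HOXD12 with 2.76. HOTAIR, HOXC11 and HOXC-AS3 passed only through their G2 libraries, so they had to differ. The other entries above 0 that did not pass were HOXC-AS2, at up to 2.15 in G2 and at 0 in all controls, and the 5 entries of HOXA and HOXB.

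**Figure D1:**
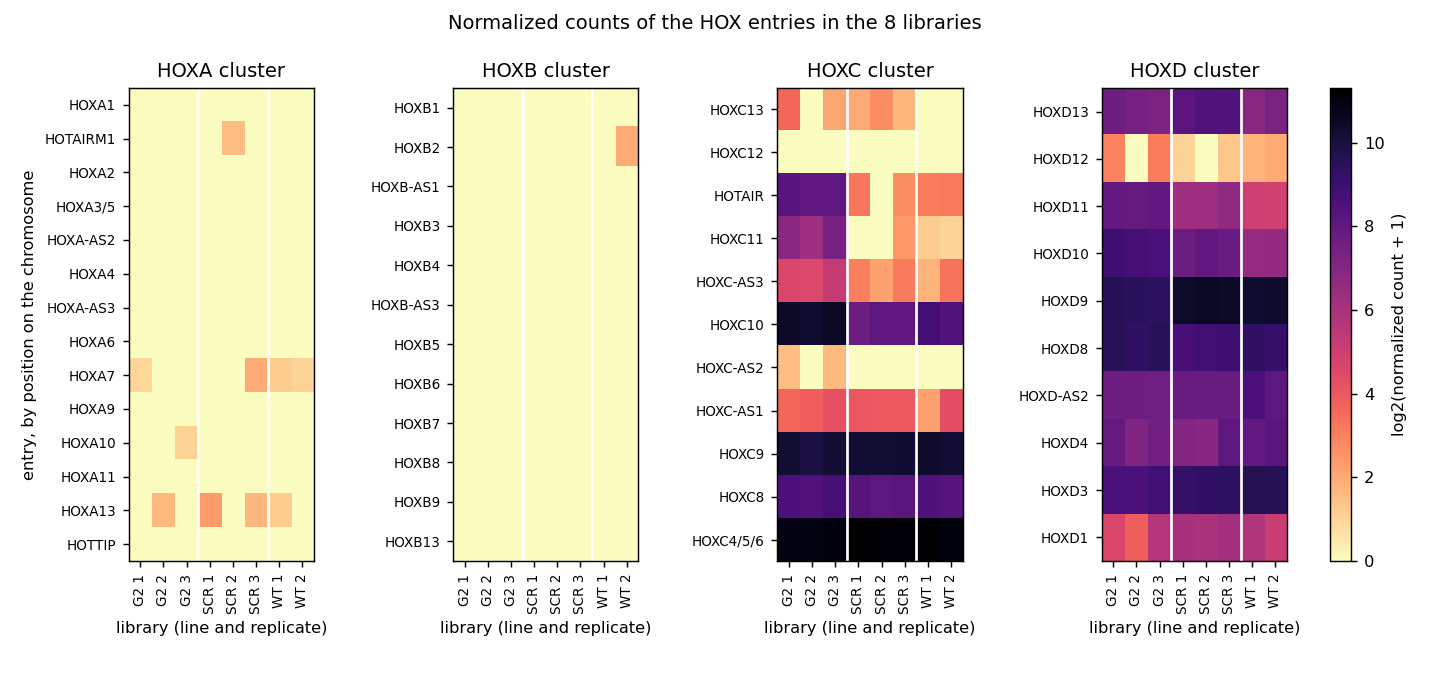
Level of each of the 47 entries, as log2(normalized count + 1), in the 8 libraries, with the entries of a cluster from top to bottom in chromosomal order. HOXA and HOXB are at or near 0 throughout, and HOTAIR, HOXC11, HOXC-AS3 and HOXC10 are darker in the 3 G2 libraries than in the 5 controls.

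The posterior part of HOXC separated G2 from both controls. HOTAIR (chr12:53962308-53974956, minus strand) measured 301, 274 and 268 in G2, 8.16, 0 and 5.29 in SCR, and 7.45 and 7.94 in WT. Both control lines were at the floor, and HOTAIR in G2 was at least 34.5-fold higher against SCR and at least 27.9-fold higher against WT. The G2 libraries lay within 281 ± 17.8 (SD, n = 3), and no control library came near them.

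HOXC11, its coding neighbour (chr12:53973126-53977643, plus strand), a posterior gene of the lumbosacral region, measured 112, 76.6 and 165 in G2. It measured 0, 0 and 4.53 in SCR, and 1.24 and 0.993 in WT, the floor in both lines. In G2 HOXC11 was at least 14.5-fold higher against SCR and at least 11.7-fold higher against WT, and its G2 libraries spread more widely than those of HOTAIR. The annotated spans of HOTAIR and HOXC11 overlap by 1831 bases on opposite strands, with no overlap of exons. The strand setting of the counting is not given in the sources used here, so reads of antisense partners cannot be told apart. Per library, HOTAIR had 2.69, 3.57 and 1.62 times the normalized counts of HOXC11 in G2, so this ratio varied between the G2 libraries. With both genes at the floor in the controls, it was not compared between lines.

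HOXC10 (chr12:53985146-53990279), which takes part in specifying lumbar motor neurons, measured 1449, 1282 and 1476 in G2. It measured 200.03, 271 and 278 in SCR, and 445 and 355 in WT. The G2 libraries were all above the controls, by 5.61-fold over SCR (log2 2.50, SE 0.14) and by 3.51-fold over WT (log2 1.81, SE 0.15). SCR was in turn lower than WT (log2 -0.68, SE 0.15, adjusted p = 0.00431), and this call was lost without SCR replicate 1 (-0.53), without WT replicate 1 (-0.52) or with all libraries scaled to the same total (-0.41).

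HOXC-AS3 (chr12:53981529-53985519), an antisense transcript beside HOXC10, measured 24.5, 23.0 and 36.5 in G2, 7.14, 3.75 and 7.56 in SCR, and 2.48 and 8.94 in WT. In G2 it was 4.55-fold above SCR, which was just over the floor with at most 10 recovered counts. With WT at the floor, HOXC-AS3 in G2 was at least 2.78-fold higher against WT. The call against WT was lost without WT replicate 1 (log2 1.52). HOXC-AS3 and HOXC10 share 374 bases, 63 of them exonic, so their reads cannot be fully told apart. At the far posterior end, HOXC13 measured 11.3, 0 and 3.22 in G2 and at most 5.63 in the controls, and HOXC12 was at 0 in all libraries. The high G2 values thus ran from HOTAIR to HOXC10 and did not extend to the end of the cluster.

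The anterior part of HOXC differed little between the lines. HOXC9 (chr12:54000119-54003337), a thoracic gene that lies next to HOXC10, measured 1192, 1002 and 1149.8 in G2, 1207, 1213 and 1249 in SCR, and 1329 and 1157 in WT. The groups overlapped, with log2 differences of -0.14 (SE 0.08) against SCR and -0.16 (SE 0.09) against WT, and the sign of the second turned when all libraries were scaled to the same total (0.03). HOXC8 (chr12:54008985-54012741), a gene of the brachial region, measured 390.5, 339 and 429.8 in G2, 314, 276 and 288 in SCR, and 365 and 313 in WT. Its difference of 0.40 (SE 0.12) from SCR was under the fold threshold, and G2 overlapped WT.

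The entry of HOXC4, HOXC5 and HOXC6 (chr12:54016888-54056030) had the highest counts of all members. It measured 1903, 1949 and 1992 in G2, 2542, 2269 and 2363 in SCR, and 2473 and 2162 in WT. The G2 libraries lay below all controls, by less than the fold threshold (log2 -0.29, SE 0.07, against SCR and -0.25, SE 0.08, against WT). HOXC-AS1 (chr12:53999022-54000010), an antisense transcript beside HOXC9, measured 11.3, 13.1 and 18.3 in G2, 15.3, 15.0 and 15.1 in SCR, and 3.72 and 18.9 in WT. The groups overlapped, and the sign of its difference from SCR (log2 -0.11) turned without G2 replicate 1.

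A ratio within a library does not depend on the size factors. HOXC10 had 1.22, 1.28 and 1.28 times the normalized counts of HOXC9 in the G2 libraries. The ratio was 0.166, 0.224 and 0.223 in SCR and 0.335 and 0.307 in WT. HOXC10 exceeded HOXC9, its neighbour on the chromosome, in every G2 library and in none of the controls.

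**Figure D2:**
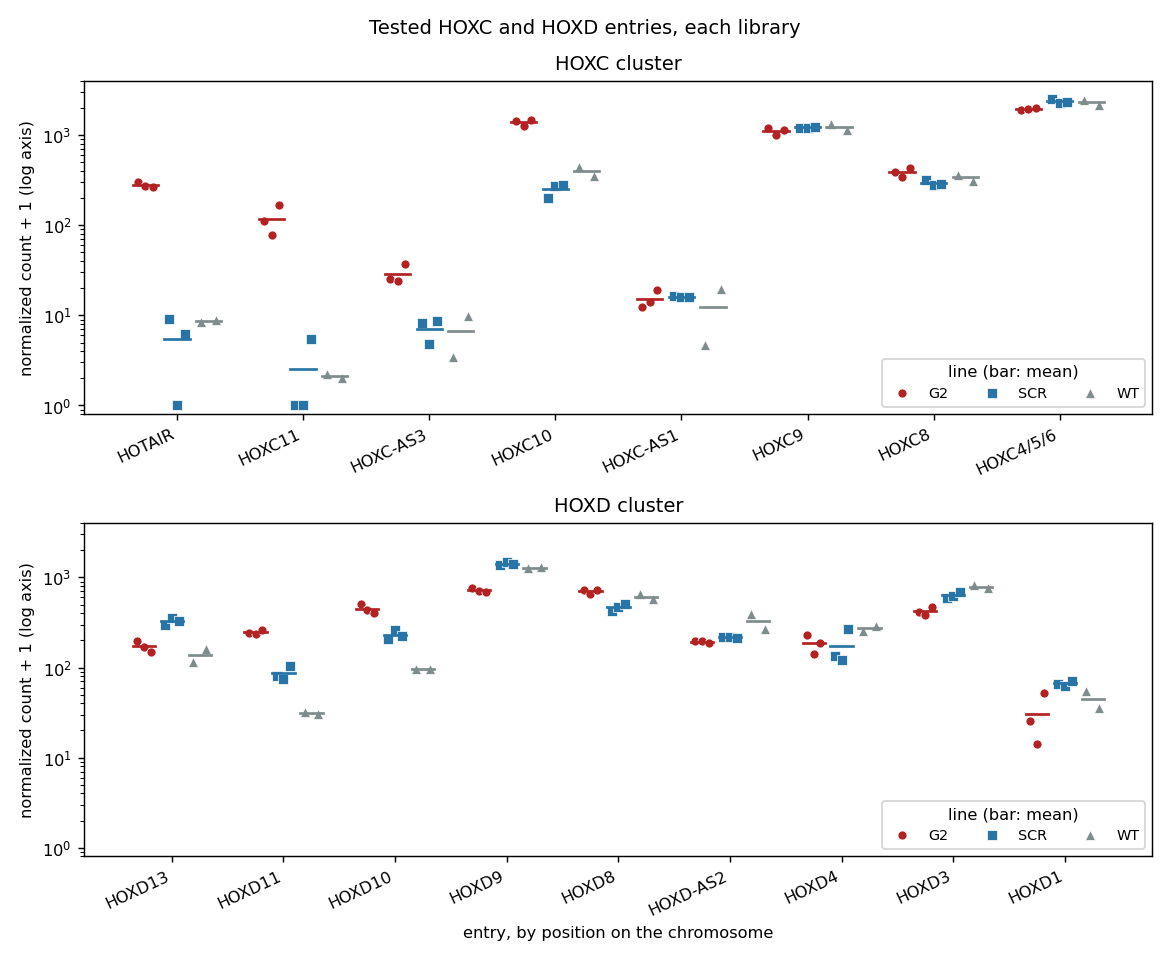
Normalized count plus 1, on a log axis, of the 17 tested entries in each library, with bars for the mean of a line. In HOXC the G2 points of HOTAIR, HOXC11, HOXC-AS3 and HOXC10 stand above those of both controls, and in HOXD the order of the lines is G2, SCR, WT for HOXD11 and HOXD10 and reversed for HOXD3.

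Of the 50 symbols, 26 matched the RefSeq promoter table (GRCh38.p14) with 33 promoters in all, 10 of them of tested entries. HOXC4 and HOXC5 have the same window there, which is counted for each of them. HOTAIR, HOXC8, HOXC9, HOXC10, HOXC11 and HOXD9 had no promoter there. The promoters of 4 HOXD genes are shown because these neighbours went in different directions. HOXD11 and HOXD10 were higher in G2 than in both controls, HOXD3 was lower than in both, and HOXD13 was highest in SCR. Each line gives the 250 bases before the start, all on the plus strand of chr2, with CG dinucleotides in capitals. The windows are chr2:176092471-176092720 for HOXD13, chr2:176107030-176107279 for HOXD11, chr2:176116528-176116777 for HOXD10 and chr2:176157057-176157306 for HOXD3. The RefSeq start of HOXD11 lies inside the longer span that the deposited table gives for the gene.
HOXD13: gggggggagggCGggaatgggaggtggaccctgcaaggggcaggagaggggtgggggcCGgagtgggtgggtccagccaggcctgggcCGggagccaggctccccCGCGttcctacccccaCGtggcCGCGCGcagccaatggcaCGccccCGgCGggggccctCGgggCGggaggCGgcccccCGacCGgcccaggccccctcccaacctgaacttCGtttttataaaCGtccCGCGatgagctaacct
HOXD11: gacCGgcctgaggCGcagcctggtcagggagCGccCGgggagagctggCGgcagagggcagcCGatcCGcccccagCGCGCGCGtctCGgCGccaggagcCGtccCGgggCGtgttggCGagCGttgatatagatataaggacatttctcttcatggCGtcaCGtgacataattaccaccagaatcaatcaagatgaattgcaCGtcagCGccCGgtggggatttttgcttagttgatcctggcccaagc
HOXD10: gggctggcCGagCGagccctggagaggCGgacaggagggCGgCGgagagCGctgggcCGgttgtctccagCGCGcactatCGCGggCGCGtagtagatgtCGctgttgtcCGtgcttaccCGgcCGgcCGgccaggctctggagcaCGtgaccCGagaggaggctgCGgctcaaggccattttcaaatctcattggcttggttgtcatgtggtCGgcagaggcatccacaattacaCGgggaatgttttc
HOXD3: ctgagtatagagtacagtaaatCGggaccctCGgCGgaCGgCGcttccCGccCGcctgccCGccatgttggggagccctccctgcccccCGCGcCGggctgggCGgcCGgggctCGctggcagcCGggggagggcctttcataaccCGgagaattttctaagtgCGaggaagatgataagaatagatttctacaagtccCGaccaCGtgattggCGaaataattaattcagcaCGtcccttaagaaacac

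The windows held 21 CG dinucleotides for HOXD13, 23 for HOXD11, 23 for HOXD10 and 21 for HOXD3. The median was 11 over all 35116 promoters of the table and 21 over the 10 of tested entries. The 4 shown windows were thus alike in this feature. Windows of other tested HOXD entries ranged more widely, with 31 for HOXD1, 28 for HOXD8, 6 for HOXD-AS2 and 4 for HOXD4. The motif TGATNNAT, a site for HOX proteins with their PBX cofactors, was searched on both strands, overlapping matches included. It was in 6.47% of all promoters and in 4 of 33 promoters of the members (12.1%), among them that of HOXD11 as ATCAATCA, 67 to 60 bases before the start. The retinoic acid element DR5, a direct repeat of AGGTCA with a gap of 5 bases, was in 0 of the 33 and in 1 of all promoters. These matches are descriptions and show no binding.

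HOXD11 (chr2:176104522-176109754), a gene of the forearm and the sacral trunk, measured 243, 238 and 257 in G2, 78.6, 74.1 and 102 in SCR, and 31.0 and 29.8 in WT. The 3 lines did not overlap, with G2 2.89-fold above SCR (log2 1.54, SE 0.17) and 8.08-fold above WT (log2 2.97, SE 0.19). SCR was also above WT (log2 1.44, SE 0.19, adjusted p = 1.7e-04).

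HOXD10 (chr2:176116778-176119937), which acts with HOXC10 in lumbar motor neurons, measured 503, 431 and 401 in G2, 205, 258 and 224 in SCR, and 94.4 and 95.3 in WT. G2 was 1.94-fold above SCR (log2 0.95, SE 0.13) and 4.69-fold above WT (log2 2.21, SE 0.15). SCR was 2.42-fold above WT (log2 1.26, SE 0.15, adjusted p = 5.8e-05). For both genes the order was G2, SCR and WT, and the log2 difference between the control lines was close to, or above, that between G2 and SCR.

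HOXD13 (chr2:176092721-176095944), the posterior end gene, known for its part in digit and genital development, did not follow this order. It measured 198, 169 and 149 in G2, 293, 356 and 328 in SCR, and 115 and 159 in WT. SCR was highest, 1.89-fold above G2 and 2.37-fold above WT (log2 1.25, SE 0.18, adjusted p = 2.3e-04), while G2 and WT overlapped. EVX2, the homeobox gene 8.8 kb beyond HOXD13, was also highest in SCR, with 27.6, 33.8 and 36.3 in SCR, 2.82, 3.28 and 3.22 in G2, and 0 and 5.96 in WT, the floor in both latter lines. G2 was at least 3.49-fold lower than SCR, and EVX2 passed the filter only through its SCR libraries, so that it had to differ. HOXD12, between HOXD13 and HOXD11, was at or under the floor in every line, at most 7.52.

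HOXD9 (chr2:176122685-176124937), a thoracic gene and the most abundant of HOXD in counts, measured 755, 711 and 696 in G2, 1373, 1490.3 and 1418 in SCR, and 1263 and 1299.6 in WT. All G2 libraries were below all controls, by 1.98-fold against SCR (log2 -0.98, SE 0.07) and 1.78-fold against WT (log2 -0.83, SE 0.08). HOXD8 (chr2:176129705-176132695) measured 732, 648 and 729 in G2, 420.5, 472 and 512 in SCR, and 649 and 573 in WT. G2 was above SCR (log2 0.59, SE 0.10) and overlapped WT. This value sits at the threshold, and the call was lost without G2 replicate 1 (0.56), G2 replicate 3 (0.56) or SCR replicate 1 (0.51). It was also lost with all libraries scaled to the same total (0.50), with a block on the number in the library name (0.54), with a pseudocount of 5 and in DESeq2 (0.58 each).

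HOXD3 (chr2:176157307-176173098), an anterior gene, measured 407, 383 and 473 in G2, 589.9, 627 and 680.2 in SCR, and 815 and 768 in WT. It had the opposite order to HOXD10, lower in G2 than in SCR (log2 -0.59, SE 0.10) and 1.88-fold lower than in WT (log2 -0.91, SE 0.11). The call against SCR was lost without G2 replicate 1 (-0.57), G2 replicate 2 (-0.52) or SCR replicate 3 (-0.53), or with a pseudocount of 5 (-0.58), while that against WT was kept without any 1 library.

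HOXD1 (chr2:176188579-176190907), the most anterior gene of the cluster, measured 24.5, 13.1 and 51.6 in G2, 65.3, 61.0 and 70.3 in SCR, and 53.4 and 34.7 in WT. It was 2.20-fold lower in G2 than in SCR (log2 -1.32, SE 0.41) and overlapped WT. HOXD1 and HAGLR, a noncoding gene on the other strand, share 380 bases, 145 of them exonic.

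HOXD4 (chr2:176151385-176153477), a retinoic acid responsive gene of the hindbrain, measured 227, 139 and 187 in G2, 133, 121 and 267 in SCR, and 255 and 288 in WT. The spread within G2 and SCR covered the difference between them (log2 0.15, SE 0.27), and the difference of SCR from WT (-0.73, SE 0.30) did not hold after adjustment (adjusted p = 0.0778). HOXD-AS2 (chr2:176134841-176137098), an antisense transcript of the cluster, measured 195, 194 and 188 in G2, 215, 217 and 212 in SCR, and 391 and 265 in WT. G2 lay below all controls, with a call against WT (log2 -0.74, SE 0.16) that was lost without WT replicate 1 (-0.46) or with all libraries scaled to the same total (-0.56).

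Ratios to HOXD9 within a library do not depend on size factors, but HOXD9 was itself lower in G2. HOXD10 had 0.667, 0.607 and 0.576 times the counts of HOXD9 in G2, 0.149, 0.173 and 0.158 in SCR, and 0.0747 and 0.0733 in WT. HOXD11 had 0.322 to 0.369 times in G2, 0.0497 to 0.0720 in SCR and 0.0229 to 0.0246 in WT. The ratio of HOXD13 to HOXD9, at 0.215 to 0.262 in G2 and 0.213 to 0.239 in SCR, overlapped between these lines and was 0.0914 and 0.122 in WT, unlike the HOXD13 level, which separated SCR from both other lines.

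Counted over the 17 tested members, 11 were called in G2/SCR, 7 higher and 4 lower, where 26.9% of all tested genes were called, 15.1% higher and 11.8% lower. In G2/WT 9 were called, 6 higher and 3 lower, with 29.9% of all genes called, 17.7% higher and 12.2% lower. In SCR/WT 5 were called, 3 higher and 2 lower, with 16.3%, 10.7% and 5.63% of all genes. With an adjusted p of at most 0.05 the members called were 11, 9 and 4, where all genes gave 25%, 28.2% and 13.8%. All G2 libraries lay above all controls for 6 members and below them for 4, against 22.8% and 19.7% of all genes. Those higher in G2 include HOTAIR, HOXC11 and HOXC-AS3, which passed the filter only through G2 and had to differ. The members were also proposed with the G2 results known, so nothing is read from these shares. Over the 17 the median log2 difference was 0.15 for G2/SCR, with all genes at -0.01, and 0.20 for G2/WT, with all genes at 0.00. Setting the members at the floor to their bounds left both medians as they were. The comparisons share libraries and are not independent of each other.

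With all libraries scaled to the same total, the median of all genes moved to -0.10 in G2/SCR, 0.19 in G2/WT and 0.28 in SCR/WT. The calls of all genes then went from 2858 higher and 2230 lower to 2485 and 2743 in G2/SCR, so that the larger share turned from higher (56.2% of the calls) to lower (47.5% higher). They went from 3353 higher and 2304 lower to 4515 and 1448 in G2/WT, and from 2031 and 1066 to 3959 and 411 in SCR/WT. Of the members, 6 were then called higher and 4 lower in G2/SCR, G2/WT gave 6 and 2, and SCR/WT gave 3 and 0. HOTAIR, HOXC11, HOXC10, HOXC-AS3, HOXD11 and HOXD10 were called higher in both G2 comparisons, and HOXD9 and HOXD3 lower in both, under either scaling. Of these, HOTAIR, HOXC11 and HOXC-AS3 passed the filter only through their G2 libraries, so they had to differ under both scalings.

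**Figure D3:**
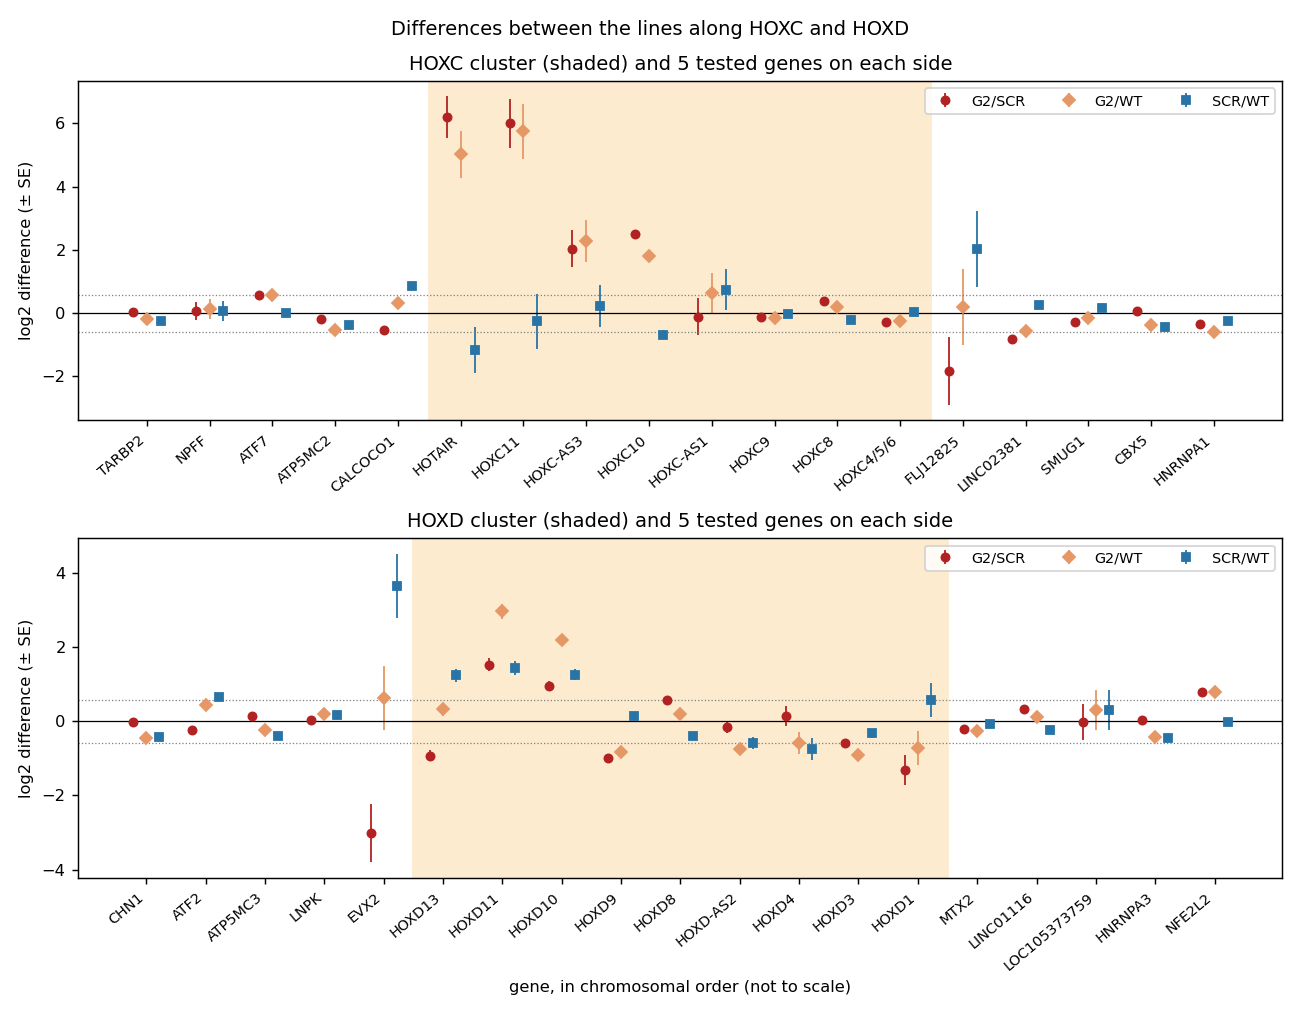
Log2 differences with their SE in G2/SCR, G2/WT and SCR/WT for the tested members (shaded) and the 5 nearest tested genes on each side, in chromosomal order and not to scale, with dotted lines at a fold of 1.5. In HOXC the G2 differences are large from HOTAIR to HOXC10. They are under a fold of 1.5 for HOXC9, HOXC8 and the HOXC4, HOXC5 and HOXC6 entry. Values against lines at the floor, as for HOTAIR and HOXC11, depend on the pseudocount of 1.

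The share of a cluster's coding counts that came from paralog groups 10 to 13 was computed after the values were seen. In HOXC it was 31.1%, 29.2% and 31.5% in the G2 libraries, 4.76%, 6.86% and 6.81% in SCR, and 9.66% and 8.94% in WT. In HOXD it was 30.7%, 30.7% and 27.6% in G2, 18.3%, 19.9% and 18.2% in SCR, and 7.42% and 8.83% in WT. The lines did not overlap in either cluster, and G2 was highest in both. Most of the HOXC share was HOXC10, at a mean of 1403 in G2 beside 118 for HOXC11. In HOXD the share depends also on HOXD9 and HOXD3, which were lower in G2, and on HOXD8, which was above SCR. HOXD13, within the share, was lower in G2 than in SCR. SCR and WT had opposite orders in the clusters, with SCR lower than WT in HOXC and higher in HOXD. The sum of the cluster moved less, with 5299 ± 303 in G2, 4188 ± 124 in SCR and 4325 ± 426 in WT for HOXC, and 3118 ± 183, 3622 ± 226 and 3592 ± 108 for HOXD (SD, n = 3, 3 and 2).

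**Figure D4:**
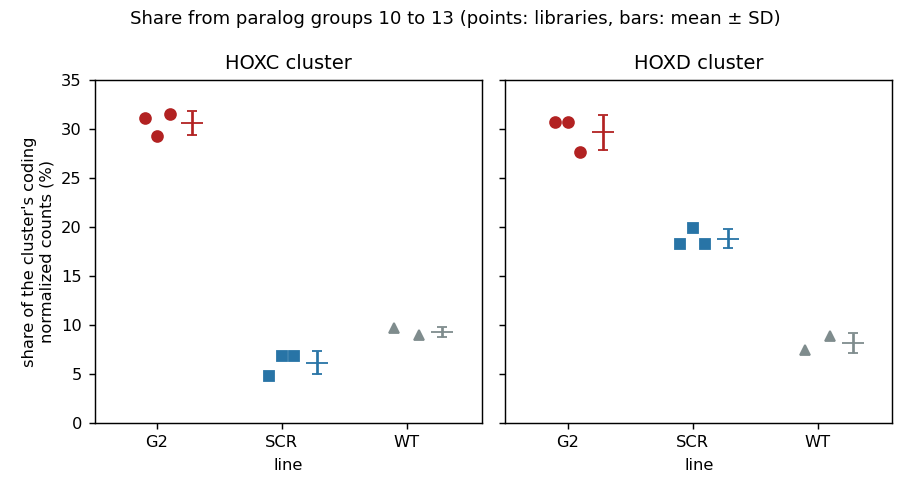
Share of the normalized counts of a cluster's coding entries, in percent, that came from paralog groups 10 to 13 in each library, with the mean and SD of each line beside the points. The G2 libraries sit between 27.6% and 31.5% in both clusters, above all control libraries.

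Levels of different genes were compared per kilobase of exon. In HOXC the order in SCR and WT began with HOXC9, at 734 ± 13.5 and 746 ± 73.0 normalized counts per kilobase (SD), and the HOXC4, HOXC5 and HOXC6 entry, at 325 ± 18.9 and 315 ± 29.9. HOXC10 and HOXC8 followed, at 105 ± 18.2 and 121 ± 8.13 in SCR and at 169 ± 26.6 and 140.2 ± 15.3 in WT, with overlapping ranges in both lines. In G2 HOXC10 stood at 592 ± 44.3, in a range that overlapped that of HOXC9 at 669 ± 59.9, and above the HOXC4, HOXC5 and HOXC6 entry at 265 ± 6.10. Among the tested coding entries HOXC11 was last in all lines, at 36.2 ± 13.7 in G2 and under 1 in the controls. HOTAIR stood at 90.2 ± 5.73 in G2, between HOXC8 and HOXC11.

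In HOXD, HOXD9 led in all 3 lines, at 385 ± 16.2 per kilobase in G2, 763 ± 31.7 in SCR and 685 ± 13.9 in WT. In WT it was followed by HOXD4, HOXD8 and HOXD3 between 214 and 239, of which HOXD4 and HOXD8, and HOXD8 and HOXD3, overlapped in range. HOXD13, HOXD10, HOXD1 and HOXD11 then stood apart from each other at 56.8, 38.1, 23.4 and 14.4. In G2 HOXD8 was next at 267 ± 18.0, then HOXD10 at 179 ± 21.2 and HOXD4 at 162 ± 38.7, which overlapped, and HOXD11 at 116 ± 4.70 and HOXD3 at 114 ± 12.5, which overlapped too. HOXD10 and HOXD11 thus moved from the lower end of the order in WT to the middle in G2.

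The genes beside the clusters were described in the same way. Among the 10 tested neighbours of HOXC, up to 432.4 kb away, no gene was called in both G2 comparisons, and the calls were LINC02381, lower in G2/SCR, and HNRNPA1, lower in G2/WT. The median log2 difference of these neighbours was -0.24 for G2/SCR, and that for G2/WT was -0.17. NFE2L2, a regulator of the oxidative stress response 1039.4 kb from HOXD, was called in both, at 4464 ± 113 in G2, 2559 ± 69.3 in SCR and 2584 ± 322 in WT. Beside the silent clusters, the genes called in both were CREB5 (3.31-fold higher in G2 than in SCR) and LOC105375304 (1.85-fold lower) at HOXA and COPZ2 (4.67-fold higher) at HOXB. PRPF40B lies 4.29 Mb from HOXC on the same chromosome. Of the 68 tested genes in between, 14 were called higher and 10 lower in G2/SCR, with a median of 0.10, and 13 and 6 in G2/WT, with a median of 0.08. Of all tested genes 15.1% were called higher and 11.8% lower in G2/SCR, and 17.7% and 12.2% in G2/WT. The counts of neighbours and of genes in between are to be read against these shares, and no region was tested.

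Gene lists of partners and regulators of HOX genes, with genes related to them, were set beside the members. Like the members, the lists were chosen with earlier results of these data known. The adjusted p-values of their genes are therefore descriptions of the spread between libraries and not independent tests. Their counts are descriptions, to be read against the 15.1% of all genes called higher and 11.8% called lower in G2/SCR and the 17.7% and 12.2% in G2/WT, and no list was tested against other genes. The TALE homeodomain family holds the PBX and MEIS partners with which HOX proteins bind DNA, and also TGIF1 and TGIF2. Of its 11 tested genes, 2 were called higher and 1 lower in G2/SCR (27.3%, against 26.9% of all genes), with a median of 0.34. TGIF1, a repressor of this family, was 2.55-fold higher in G2, at 1869 ± 61.4, than in SCR, at 732 (adjusted p = 3.4e-08), and was also higher than in WT, at 953 ± 82.1 (log2 0.97, adjusted p = 1.9e-06). MEIS1 was 1.79-fold higher in G2 than in SCR, but its 1261 ± 38.5 in G2 stood beside 1192 ± 37.1 in WT. PKNOX2 was low throughout, at most 46.9, passed the filter only through its SCR libraries, and its call did not hold after adjustment (adjusted p = 0.0648) or without G2 replicate 1, SCR replicate 1 or SCR replicate 3. PBX2 and PBX3, partners of HOX proteins, were called in neither G2 comparison. In G2/WT 1 gene of this list was called higher, TGIF1, and 1 lower, PBX4 (log2 -0.63, adjusted p = 0.0153), named after its value was seen.

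Of 30 tested Polycomb genes, which silence HOX clusters, 4 were called higher and 0 lower in G2/SCR, with a median of 0.11. This is 13.3% of the list, where 15.1% of all genes were called higher and 11.8% lower, so the values below describe single genes and not the list. Among them were EZH2, the catalytic subunit of PRC2, and its partners PHF19 and AEBP2. EZH2 rose from 5857 ± 256 in SCR to 10697 ± 357 in G2 (log2 0.87, adjusted p = 9.4e-08), with 7841 ± 392 in WT, from which the difference was under the fold threshold (log2 0.45). PHF19 was 1.82-fold higher in G2 than in SCR, with 2099.5 ± 41.2 in G2 beside 1891 ± 183 in WT. AEBP2, at 1047 ± 61.8 in G2, was called higher than both SCR at 654 ± 38.6 and WT at 627 ± 90.9. In G2/WT 2 Polycomb genes were called higher, AEBP2 among them, and 1 lower, PCGF6 of a variant PRC1 (log2 -0.72), named after its value was seen. SUZ12 and EED, the core partners of EZH2, were called in neither.

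Of 17 tested Trithorax genes and H3K27 demethylases, which act against Polycomb, none was called in G2/SCR by limma, and 0 by edgeR and 0 by DESeq2. At an unadjusted p under 0.05 with no fold threshold there were 6, 2 of them higher. In G2/WT 1 was called higher, the demethylase KDM6B (log2 0.88, adjusted p = 1.7e-06), named after its value was seen. Of the 10 genes of the complexes that HOTAIR is known to bind, 3 were called higher and 1 lower in G2/SCR. These were EZH2, HDAC1 (1.90-fold) and REST (1.67-fold), and KDM1A, the demethylase itself, which was 1.59-fold lower in G2 than in SCR and 1.51-fold lower than in WT (adjusted p = 2.0e-07 and 1.7e-06) and was named after its value was seen. Its call against WT was lost without G2 replicate 3 or WT replicate 1 (log2 -0.58 each), with a replicate block (-0.58), with a block on the number in the library name (-0.56) and with all libraries scaled to the same total (-0.41). In G2/WT 1 was called higher, REST, and 2 lower, KDM1A and its corepressor partner RCOR2 (log2 -0.76), the last named after its value was seen.

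The retinoic acid pathway, which induces HOX genes from the anterior end, had 13 tested genes, of which 3 were called higher and 2 lower in G2/SCR, with a median of 0.03. RDH10, which oxidizes retinol to retinal, measured 501 ± 51.7 in G2 and 94.2 ± 10.3 in SCR (log2 2.40, adjusted p = 4.2e-08), with 73.2 ± 1.73 in WT. DHRS3, which acts in the opposite direction, was 4.82-fold higher in G2 than in SCR, where its level was near the floor. Its 36.0 ± 11.8 in G2 did not pass the test against 22.1 ± 7.38 in WT (log2 0.67, adjusted p = 0.265). ALDH1A3, which makes retinoic acid from retinal, was 2.46-fold lower in G2 than in SCR and 1.79-fold lower than in WT. Named after their values were seen, the receptor RARB was 2.295-fold higher and the binding protein CRABP2 2.28-fold lower in G2 than in SCR. The members of the pathway thus moved in both directions, and in G2/WT 2 were called higher and 4 lower.

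Of 9 tested upstream patterning factors, 3 were called higher and 2 lower in G2/SCR, while G2/WT gave 4 and 1. GBX2, a hindbrain homeobox gene, measured 58.3, 75.6 and 66.6 in G2 and was at the floor in both controls. It passed the filter only through its G2 libraries, so that it had to differ. The G2 level was at least 8.21-fold higher against SCR and at least 6.65-fold higher against WT. EGR2, which drives HOX genes in hindbrain segments, was 4.90-fold higher in G2 than in SCR, and with WT at the floor at least 10.1-fold higher than there. The other calls were EVX2, and, named after their values were seen, FGFR1, 3.73-fold higher, and CDX1, 3.69-fold lower in G2 than in SCR. CDX1 belongs to a family that activates trunk HOX genes, and its relatives CDX2 and CDX4 were at 0 in all libraries.

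Of 20 other noncoding genes of the HOX loci, 13 were in the table and 2 passed the filter. HAGLR, at the anterior end of HOXD, was not called, and LINC02381, beyond the anterior end of HOXC, was 1.78-fold lower in G2 than in SCR (adjusted p = 3.5e-05). In G2/WT neither was called by limma, with 2 at an unadjusted p under 0.05, 1 of them higher. Of 28 tested homeobox genes outside the clusters, 6 were called higher and 7 lower in G2/SCR, while G2/WT gave 5 and 4. PRRX1, a mesenchymal homeobox gene, was at 20.7, 48.2 and 22.6 in G2 and at 0 in all 5 controls, so that G2 was at least 3.74-fold higher against SCR. PRRX1 passed the filter only through its G2 libraries, so that it had to differ. SIX2 in G2 was 3.36-fold above SCR and 3.97-fold above WT. MSX1 was high in SCR alone, at 299 ± 32.6, beside 23.5 ± 9.83 in G2 and 14.5 ± 16.3 in WT, so that SCR was highest as for HOXD13 and EVX2.

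Markers of cell types differed between the lines as well. These lists too were chosen with earlier results known, so the adjusted p-values of their genes are descriptions. All 16 markers of adrenergic neuroblastoma cells, the state for which this line is known, were tested, and 13 were called lower and 1 higher in each G2 comparison. Their summed level was 131567 to 142322 in G2, 252388 to 268353 in SCR and 283605 to 298551 in WT. CHGA fell from 26130 ± 1788 in SCR to 3101 ± 254 in G2 (log2 -3.08, adjusted p = 3.3e-11), and DBH, the enzyme that makes noradrenaline, was 3.34-fold lower. TH, the first enzyme of that pathway, was at most 26.5 in any library and at the floor in G2. It passed the filter only through its control libraries, so that it had to differ. Its call against SCR was lost without SCR replicate 1 and that against WT without WT replicate 1. Of the 20 mesenchymal or fibroblast markers 17 were tested, and 14 were called higher and 0 lower in each G2 comparison, with POSTN at 0 in all libraries. PRRX1, among those called, passed the filter only through its G2 libraries. Their summed level was 369217 to 372967 in G2, 139464 to 146811 in SCR and 107096 to 120648 in WT, and DCN, at 37183 ± 812 in G2, 1051 ± 86.9 in SCR and 166 ± 17.6 in WT, was 35.4-fold higher in G2 than in SCR. FAP, a fibroblast protease, was 13.5-fold higher. In bulk RNA, fewer cells of a type and less RNA per cell cannot be told apart, and the part of these shifts in the HOX values was not tested. From highest to lowest, the summed mesenchymal level had the order G2, SCR and WT with no overlap of libraries.

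**Figure D5:**
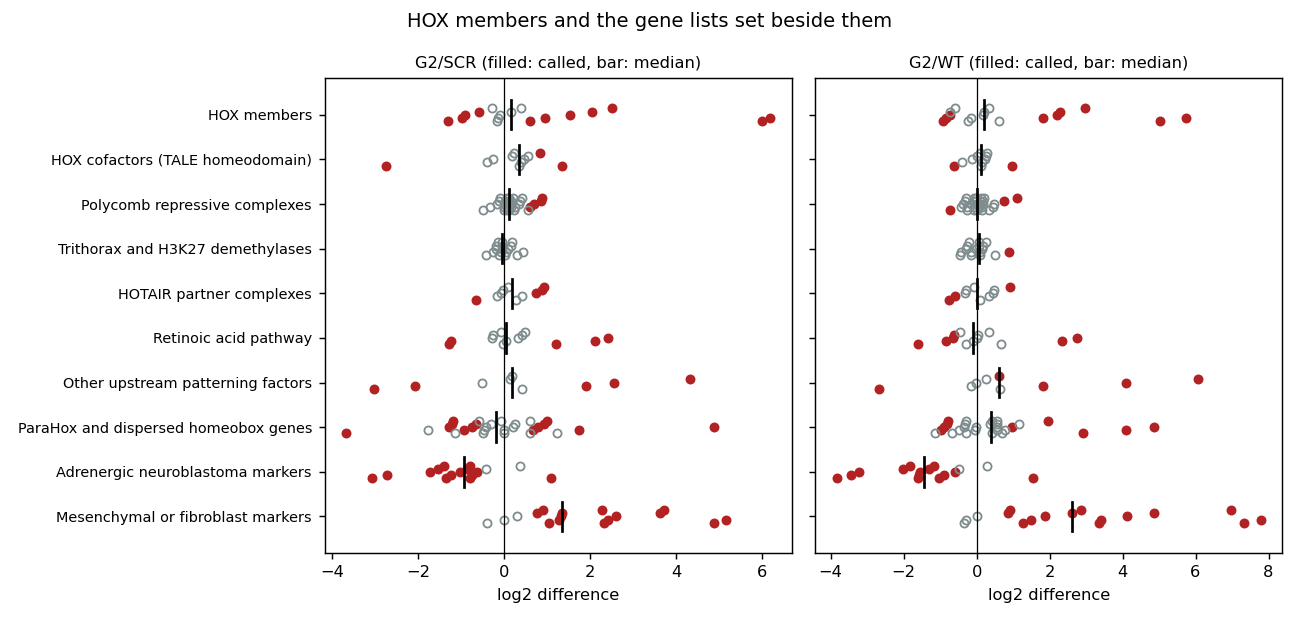
Log2 difference of each tested gene of the members and of 9 gene lists, for G2/SCR and for G2/WT, filled where called, with a bar at the median of the list. Adrenergic markers lie mostly below 0 and mesenchymal markers above it, while no Trithorax gene is filled for G2/SCR.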

How the data were processed

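RNA-seq of polyadenylated RNA was analysed in 3 G2, 3 SCR and 2 WT libraries of SH-SY5Y cells, grouped by their titles. Per the labels and methods, the authors used STAR to align the reads of a stranded, paired-end library to hg38, assigned them to FAST DB genes with featureCounts (Subread 1.5.0) and normalized the counts with DESeq2. Whether strand and reads of several loci were used in counting is not given in the sources used here. The deposited signal values are these normalized counts per gene and library, and 0 columns were left out. Division by the smallest step of a library gave whole numbers, within 0.01, for 100.00% of the values. WT replicate 2, whose step was close to 1 (0.993), was not taken as checked, so count tests were run on G2 and SCR alone.

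Values were tested as log2(value + 1) with limma 3.58.1 (R 4.3.3, a trend on the mean, 1 fit with a mean per line), so fold changes of low genes are understated. Folds in the text are ratios of mean normalized counts, and log2 differences come from the fit. The limma code was run on simulated data in which few genes differed and SCR equalled WT. That setting is unlike these libraries, so the run checks the code only. As an alternative, edgeR 4.0.16 on the recovered counts called 5093 genes in G2/SCR, 4937 of them shared with limma and 11 of them members, and DESeq2 1.42.0 called 4973, 4860 shared and 10 members. Both took each recovered count as an independent read, which the multiples of 3 put in doubt. The HOX members and the gene lists were chosen with earlier results of these data known. The lists were TALE homeodomain genes, Polycomb, Trithorax, HOTAIR partners, retinoic acid, patterning factors, noncoding genes of the loci, other homeobox genes, adrenergic and mesenchymal markers. All tested members are named. Of each other list, the 3 called genes with the largest absolute log2 difference in G2/SCR are named, of the flanking genes those called in both G2 comparisons, and PRPF40B as the check of the labels. Lists share genes, such as EZH2 and PRRX1, and some genes of the lists are not reported here. Exon lengths and strands were taken from the GENCODE annotation on GRCh38, and promoters from RefSeq. Counts at or under the floor cover counting error only.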

Additional observations from a re-analysis of the deposited data

How the results depend on the processing

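Of 855 values of single members under the alternatives, 791 kept their direction and side of the threshold, 36 lost the call, 11 gained it and 17 turned in sign. Causes were not tested unless an alternative's construction gives one. With a mean of at least 100, which tests fewer genes, 3088, 3633 and 1723 genes were called in G2/SCR, G2/WT and SCR/WT, and with a fold of at least 2, 2951, 3176 and 1491. At that fold 6 members were called in G2/SCR and 3 in SCR/WT, where scaling to the same total also left 3. Leaving out 1 library gave 9 to 11 members in G2/SCR, 7 to 10 in G2/WT and 3 to 6 in SCR/WT, the 3 without WT replicate 1. Ranks per kilobase in G2 held for 6 of 17 entries with the length of the deposited coordinates.

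For the lists in G2/SCR, a fold of at least 2 left 0 Polycomb genes, 0 HOTAIR partners, 0 noncoding genes, 6 other homeobox genes and 9 adrenergic markers, and a mean of at least 100 left 1 patterning factor and 8 other homeobox genes. In G2/WT that fold left 0 TALE genes, 1 Polycomb gene, 0 Trithorax genes, 0 HOTAIR partners, 3 retinoic acid genes and 4 other homeobox genes, and that mean 2 patterning factors. Scaling to the same total gave 1 TALE gene, 2 Trithorax genes and 1 noncoding gene in G2/WT. Leaving out 1 library gave 0 to 1 Trithorax genes in G2/SCR, and 1 to 2 TALE genes, 1 to 3 Trithorax genes and 0 to 1 noncoding genes in G2/WT.

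Signs turned for values near 0 or of low genes. With the same total, HOXC9 was at 0.029 in G2/WT and 0.26 in SCR/WT, HOXC8 at 0.067 and PRPF40B at 0.16 in SCR/WT. With a pseudocount of 5, HOXC11 was at 0.020 in SCR/WT and PKNOX2 at -0.082 in G2/WT. Without 1 library in turn, the lowest and highest values were -0.29 and 0.032 for HOXC-AS1 and -0.059 and 0.51 for HOXD4 in G2/SCR. In G2/WT they were -0.41 and 1.66 for HOXC-AS1, -2.01 and 2.28 for PKNOX2, -0.76 and 2.04 for EVX2, and -0.22 and 2.55 for MSX1. In SCR/WT they were -1.08 and 0.15 for HOXC11, -0.52 and 0.99 for HOXC-AS3, -0.30 and 1.77 for HOXC-AS1, -0.12 and 0.08 for HOXC9, -0.050 and 0.14 for the HOXC4, HOXC5 and HOXC6 entry, and -0.23 and 0.0069 for PRPF40B.

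Same-numbered replicates did not deviate together (correlations of -0.126, 0.046 and 0.147 between G2 and SCR), so the numbers were not taken as pairs. With a replicate block 5059, 5644 and 3057 genes and 11, 11 and 5 members were called, and PKNOX2 turned to -0.20 in G2/WT. With a block on the number in the library name, 1 Trithorax gene was called in G2/SCR and 1 noncoding gene in G2/WT, HOXC-AS1 was at 0.36 in G2/SCR, PKNOX2 at -1.57 and MEIS1 at -0.0025 in G2/WT, and HOXC-AS3 at -0.23 and HOXC9 at 0.056 in SCR/WT.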
